A study of Mus musculus with 6 samples.

Results

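Metallothioneins and 2 other genes of the cellular zinc response, 4 genes in all, are described here in paraxial mesoderm made from mouse embryonic stem cells. The genes were Mt1, Mt2, Mtf1 and Slc30a1. They were chosen by gene symbol with the measured difference between day 3 and day 4 already known, so that difference is given below as a description, with no test. Every probe set whose annotated symbol was one of the 4 was taken. This gave 10 of 34945 probe sets with 1 gene symbol, control probe sets left out, and 4 of 18193 genes. All 6 samples came from 1 line, Msgn1RepV, made in E14 embryonic stem cells of the 129P2/OlaHsd background, in which a Venus reporter marks expression of Msgn1. The cells of both groups were differentiated as a monolayer on gelatin in DMEM with 15% fetal bovine serum, 0.5% DMSO, 10 ng/mL of R-spondin3 (a potentiator of Wnt signals) and 200 ng/mL of Noggin (an inhibitor of BMP ligands). As labelled, the groups differ only in time, with 3 samples sorted for Venus after 3 days and 3 after 4 days, each on its own array. The labels call them biological replicates without saying whether they were separate cultures. The p-values below thus set the day difference only against the spread between these samples, which the model pools in part over genes.

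Metallothioneins are small cysteine-rich proteins that bind zinc and copper in the cell and are also induced by glucocorticoids and oxidative stress. MTF1 is a zinc-finger transcription factor that responds to free zinc by binding metal response elements, short motifs upstream of its targets, among which Mt1, Mt2 and Slc30a1 are the best known. SLC30A1 (ZnT1) carries zinc out across the plasma membrane. Storage and export thus lie under 1 sensor, and in the embryo both metallothionein genes are known for high expression in the visceral endoderm. Zinc itself was not measured.

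The promoter bases are shown because Mt1, Mt2 and Slc30a1 are textbook targets of MTF1. Whether MTF1 had a part in their lower signal at day 4 was not tested. All sequences are from RefSeq (GRCm38.p6), plus strand, 5′ to 3′, with each core of the metal response element in capitals. The cores searched were TGCACNC and TGCGCNC on both strands, and overlapping matches were counted as 1 site. The 250 bases before the annotated start lie at chr8:94178839-94179088 for Mt1, chr8:94172368-94172617 for Mt2 and chr1:191906531-191906780 for Slc30a1.
Mt1: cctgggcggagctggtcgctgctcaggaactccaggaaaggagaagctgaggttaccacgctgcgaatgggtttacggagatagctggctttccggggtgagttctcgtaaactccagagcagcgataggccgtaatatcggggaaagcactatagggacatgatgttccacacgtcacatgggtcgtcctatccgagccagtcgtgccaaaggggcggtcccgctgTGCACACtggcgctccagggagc
Mt2: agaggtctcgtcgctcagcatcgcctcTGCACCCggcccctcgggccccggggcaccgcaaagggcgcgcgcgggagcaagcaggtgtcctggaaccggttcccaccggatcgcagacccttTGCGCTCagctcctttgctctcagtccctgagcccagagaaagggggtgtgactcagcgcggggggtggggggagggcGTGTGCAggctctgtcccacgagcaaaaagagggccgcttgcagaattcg
Slc30a1: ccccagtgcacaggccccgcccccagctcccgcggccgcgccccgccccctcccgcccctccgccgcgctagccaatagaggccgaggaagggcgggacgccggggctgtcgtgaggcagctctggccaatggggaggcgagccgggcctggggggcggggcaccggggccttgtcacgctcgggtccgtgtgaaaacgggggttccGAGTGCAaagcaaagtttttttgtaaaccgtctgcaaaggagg

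Further cores lay just after the annotated starts, and only a stretch of 30 bases around them is shown for each gene, at chr8:94179089-94179118 for Mt1, chr8:94172618-94172647 for Mt2 and chr1:191906801-191906830 for Slc30a1.
Mt1 after the start: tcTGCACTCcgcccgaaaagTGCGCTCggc
Mt2 after the start: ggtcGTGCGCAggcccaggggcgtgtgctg
Slc30a1 after the start: cctccgggccGAGCGCAgtcgccgcggacg

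Positions here count from the start that RefSeq annotates, and for Mt1 and Mt2 the main start may lie further downstream, so a core placed after the start could lie before the one the cells use. Over the whole window of 300 bases, from 250 before to 50 after the start, the Mt2 promoter held 4 cores, that of Mt1 3, that of Slc30a1 2 and that of Mtf1 0. Of 32851 promoter windows of this length, 0.295% held at least 4 cores, 1.31% at least 3, 6.14% at least 2 and 25.7% at least 1. As Mt1, Mt2 and Slc30a1 are known targets through this element, high counts were likely in advance, and the shares are a description only. Before the annotated start alone, Mt2 had 3, Mt1 1 and Slc30a1 1, against 21.4% of windows with at least 1. In Mt1 the cores began 23 bases before the annotated start and at bases 3 and 21 after it. A core is a match of letters and not a binding site, and the absence of matches says only that these letters are not in the Mtf1 window. The other genes of the metallothionein cluster on chromosome 8, Mt3 and Mt4, had 1 core each.

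**Figure D1:**
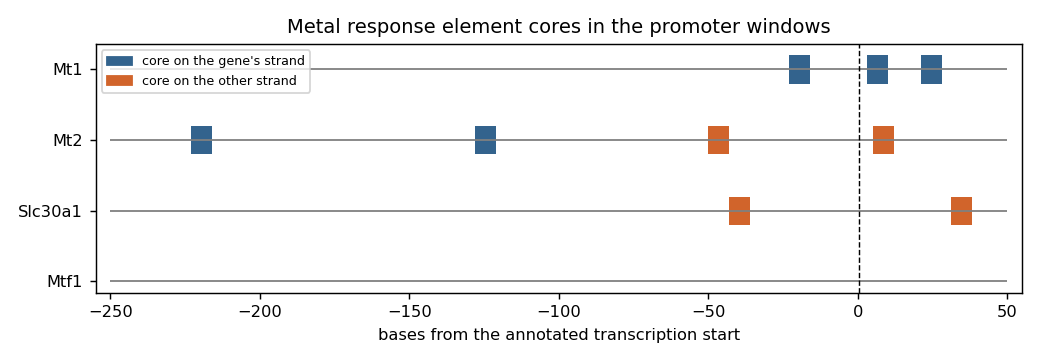
Positions of metal response element cores along the promoter windows of the 4 genes, in bases from the annotated transcription start (dashed line); each block is 1 core of 7 bases, blue on the gene's strand and orange on the other. Mt2 holds 4 blocks, Mt1 3, Slc30a1 2 and Mtf1 0.

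The values are MAS5 signals on a linear scale. As no detection calls were given, a probe set whose mean, taken on the log2 scale, was at or below the 40th percentile (a signal of 13.5) was treated as too dim to follow. Of the 10 member probe sets, 6 lay above this level and 4 under it, and all 4 genes were represented above it. The arrays had matched overall signal, with trimmed means within 1.1%, and no 2 arrays held identical values. The array of day 4 replicate 1 differed from the rest in its control probe sets. Its 3′ to 5′ signal ratio was 14 for Gapdh, where the remaining 5 arrays lay between 2.43 and 3.19, and 6.71 for Actb, where they lay between 2.77 and 3.84. Where leaving out that array changed a call or moved a called change clearly, the value without it is also given. Of 8 paraxial mesoderm markers, 7 lay above the level at day 3 and 8 at day 4. This level does not single out the sorted tissue. All 5 pluripotency, all 5 definitive endoderm and all 4 fibroblast or feeder markers were above it on both days.

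Both metallothioneins were lower at day 4 by more than the spread between replicates. The Mt1 probe set 1422557_s_at read 154, 145 and 128 on day 3 replicates 1, 2 and 3, and 56.6, 47.3 and 59 on day 4 replicates 1, 2 and 3. The lowest day 3 array was thus well above the highest day 4 array, and the days did not overlap. The means were 142 ± 13.2 and 54.3 ± 6.2 (SD, n = 3), a log2 difference of -1.39 ± 0.13 (SE over the 6 arrays, as for the other members), or 2.63-fold lower at day 4. Leaving out any 1 array gave -1.47 to -1.30, and -1.43 without day 4 replicate 1.

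The Mt2 probe set 1428942_at read 238, 249 and 203 at day 3 (replicates in order), whereas the day 4 arrays gave 87.7, 91.8 and 64.2. Again every day 3 array stood above every day 4 array, and at day 4 the lowest was replicate 3, whereas for Mt1 it was replicate 2. The means were 230 ± 24.3 and 81.2 ± 14.9, a log2 difference of -1.51 ± 0.19 and 2.85-fold lower at day 4. Leaving out single arrays moved this between -1.61 and -1.35, with -1.58 when day 4 replicate 1 was left out. The differences of Mt1 and Mt2 lay within 1 SE of each other.

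Dim probe sets say little about the rest of the family. A second Mt1 probe set, 1451612_at, had 3.38 to 10.1 at day 3 and 1.67 to 8.26 at day 4, under the filter level on all 6 arrays, so it neither repeats nor contradicts the first. The suffix of the brighter Mt1 probe set marks probes that can match more than 1 transcript, although the annotation pairs it with Mt1 alone. Mt3, the metallothionein best known from the brain, was at 2.08, 27 and 6.83 at day 3 and 1.55 to 5.65 at day 4, with only day 3 replicate 2 above the level. Mt4, known from stratified epithelium, was under the level on all arrays, with a highest signal of 6.7. Signal at the metallothionein cluster was thus followed for Mt1 and Mt2 only.

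Mtf1, the sensor, overlapped between days on each of its 3 probe sets above the filter level. Its brightest probe set, 1428979_at, read 75.8, 82.4 and 81.1 at day 3, with 48.8, 71.8 and 85.6 on the day 4 arrays. The days overlapped, since day 4 replicate 3 was the highest of the 6 arrays and day 4 replicate 1 the lowest. Its log2 difference was -0.25 ± 0.24, and -0.02 without day 4 replicate 1.

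Probe set 1418333_at ran from 58.5 to 113 at day 3 and from 49.4 to 94.2 at day 4, with replicate 1 the highest on both days. Probe set 1429170_a_at ran from 44 to 60.9 and from 36.1 to 51.4. Arrays of both days were thus mixed in order, and their log2 differences of -0.23 ± 0.40 and -0.22 ± 0.20 lay within 1 SE and just beyond 1 SE of 0. The remaining pair, 1452990_at and 1440414_at, stayed between 0.847 and 8.41 on all arrays.

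Slc30a1, the exporter, was lower at day 4 with more scatter. Probe set 1436164_at read 124, 69.9 and 74.5 at day 3, with 45.5, 25.9 and 39.9 on the day 4 arrays. The days did not overlap, but day 3 replicate 1 was far above the other day 3 arrays. The means were 89.6 ± 30.3 and 37.1 ± 10.1, a log2 difference of -1.26 ± 0.36 and 2.4-fold lower at day 4. Without day 3 replicate 1 the difference was -0.999, and without day 4 replicate 1 it was -1.43. The other probe set, 1422786_at, crossed the filter level, with 23.5, 31.3 and 6.73 on the day 3 arrays, then 14.1, 8.14 and 7.86 on those of day 4, and its days overlapped.

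**Figure D2:**
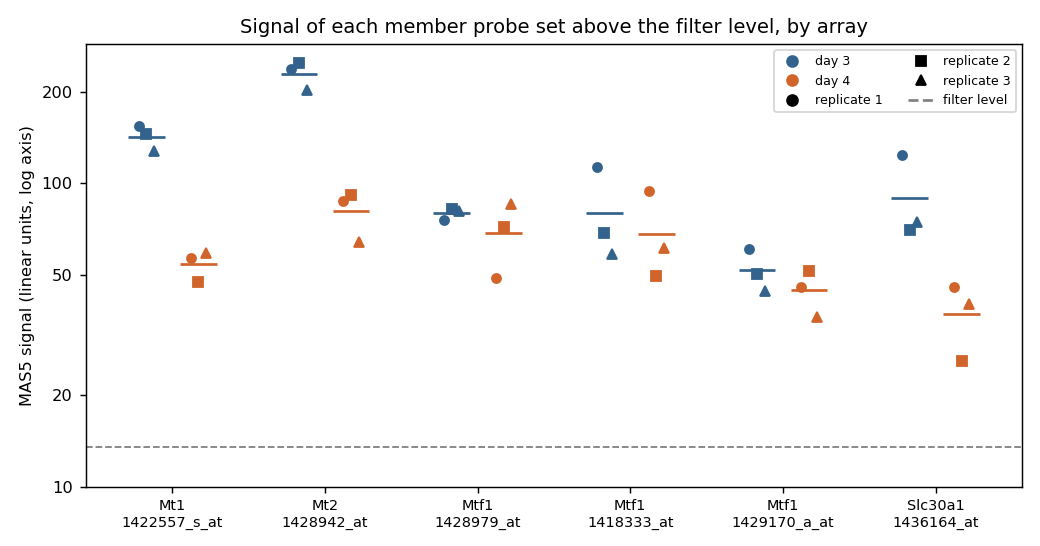
MAS5 signal (log axis) of the 6 member probe sets above the filter level (dashed line), with day 3 in blue, day 4 in orange, 1 marker shape per replicate number and a bar at the mean of 3 arrays. Mt1, Mt2 and 1436164_at of Slc30a1 show no overlap between days, with means of 142 and 54.3, 230 and 81.2, and 89.6 and 37.1, while the 3 Mtf1 probe sets overlap.

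Across the 4 genes, each by its brightest probe set, 3 had all day 4 values under all day 3 values, as did 20.6% of the 12285 genes tested. This count was part of how the genes were chosen. Ordered by log2 difference among those 12285 genes, Mt2 was number 95 from the most negative, Mt1 number 138, Slc30a1 number 180 and Mtf1 number 3237. Over the 6 arrays, log2 signals of Mt1 correlated with those of Mt2 (Pearson r = 0.946) and Slc30a1 (r = 0.925), and those of Mt2 with Slc30a1 at r = 0.824. Mtf1 had r = 0.44 with Mt1, 0.325 with Mt2 and 0.225 with Slc30a1. These correlations describe 6 arrays that share the step between the days.

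The arrays hold bulk RNA, in which fewer cells of a type and less RNA per cell cannot be told apart, and other markers moved between the same days. The summed signal of 5 pluripotency markers was 1290 to 1440 at day 3 and 676 to 766 at day 4, with 2 of the 5 falling in the fit over all genes and 0 rising. Over all genes tested in that fit (adjusted p under 0.05), 10.7% fell and 11.5% rose, which is the background for these marker counts. The summed signal of 8 paraxial mesoderm markers went from 3880 to 4130 at day 3 to 5890 to 6100 at day 4 (3 rose, 1 fell). Of 8 visceral endoderm markers, 4 were above the filter level on each day, with sums of 203 to 234 and 180 to 223 (0 rose, 1 fell), and Afp, Ttr, Apoa1 and Cubn were under it on both days. All 5 definitive endoderm markers were above it on both days, with sums of 220 to 277 and 198 to 211 (0 rose, 2 fell). Sums were 49.7 to 73.4 and 37.8 to 51.6 for 4 neural markers (0 called), of which Sox1 and Olig2 were under the level on both days. They were 262 to 325 and 175 to 284 for 4 fibroblast or feeder markers (0 called, all 4 above the level on both days). They were 236 to 274 and 447 to 629 for 4 endothelial markers (1 rose, 0 fell). Of these 4, 2 lay above the level at day 3 and only 1 at day 4, and Pecam1 and Tek were under it on both days. The part of these shifts in the signals of Mt1, Mt2 and Slc30a1 was not tested.

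The other zinc transporters tested changed by -0.50 to 0.59 on the log2 scale. Genes were compared in 1 linear model over all 12285 genes tested (limma, Benjamini-Hochberg adjusted p under 0.05), in which 11.5% of genes were higher and 10.7% lower at day 4, with a median log2 change of -0.012. These shares and this median are the background for each list of related genes below. Of 23 zinc transporters other than Slc30a1, 19 were bright enough to test, 1 rose and 1 fell, and their median change was -0.17. Without day 4 replicate 1 the counts were 2 and 2, against 14.2% and 14.5% of all genes, and without day 3 replicate 2, day 3 replicate 3 or day 4 replicate 2 none fell. Slc30a8, Slc39a2, Slc39a5 and Slc39a12 were too dim.

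Among zinc importers, Slc39a8 (ZIP8), which also carries manganese, rose from 129 ± 10.5 to 193 ± 9.94, a log2 change of 0.59 ± 0.12 (SE of the limma fit, adjusted p = 0.00713). Its call held without any 1 array (adjusted p up to 0.0286) but was lost when its dim probe sets were averaged in (adjusted p = 0.483). Slc39a11 (ZIP11) fell from 114 ± 8.13 to 80.3 ± 2.57, a change of -0.50 ± 0.13 (adjusted p = 0.0216). That call held only when the array left out was replicate 1 of either day, and adjusted p reached 0.0948 otherwise. Slc39a10 (ZIP10), an importer reported to be repressed by MTF1, was at 2580 ± 126 and 2510 ± 127, a change of -0.04 ± 0.07 that did not pass (adjusted p = 0.707). Slc39a14 (ZIP14) did not pass either (143 ± 14.3 and 106 ± 17.9, adjusted p = 0.0701), and passed without day 4 replicate 3 (adjusted p = 0.0331).

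Among zinc exporters other than Slc30a1, 0 of 8 tested passed, with a median change of -0.21. The closest to the threshold were Slc30a9 at 780 ± 24 and 932 ± 51.4 (change 0.26 ± 0.08, adjusted p = 0.0502) and Slc30a7 at 249 ± 25.4 and 195 ± 9.4 (change -0.35 ± 0.12, adjusted p = 0.0563). Both passed without day 4 replicate 1 (adjusted p = 0.03 and 0.0315). Before correction for multiple tests these 2 exporters had p under 0.05 and the other 6 did not.

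**Figure D3:**
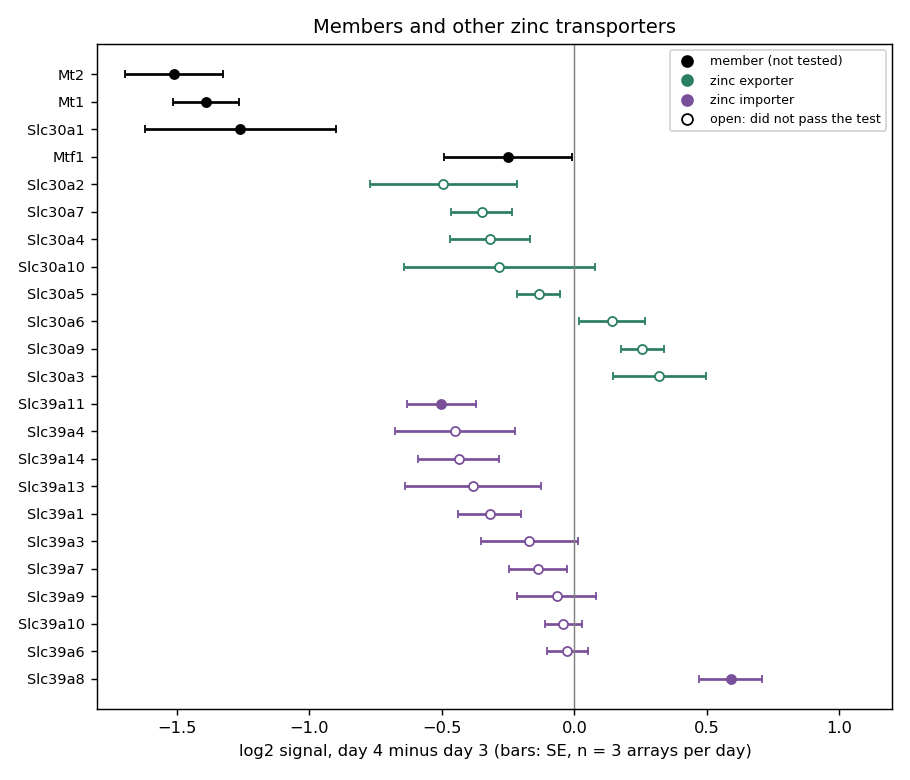
Log2 signal at day 4 minus day 3 for the 4 members (black, not tested, SE from the 6 values of the probe set), zinc exporters (green) and zinc importers (purple, both with the SE of the limma fit); filled coloured points passed at adjusted p under 0.05. Mt2, Mt1 and Slc30a1 lie at -1.51, -1.39 and -1.26, while the transporters tested lie between -0.50 (Slc39a11) and 0.59 (Slc39a8).

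Of 6 other genes reported as MTF1 targets, all tested, 2 fell and 0 rose, with a median change of -0.26. Slc39a10 and Gclc are also counted in other lists. Since Slc39a10 is reported to be repressed by MTF1, the count and the median mix targets of unlike direction. Selenow, a small selenoprotein, fell from 508 ± 47.4 to 368 ± 11.7, a change of -0.46 ± 0.10 (adjusted p = 0.0106). It was measured on a suffixed probe set, and without such probe sets the change was -0.74 and did not pass (adjusted p = 0.153). Csrp1, a LIM-domain protein, fell from 209 ± 32.4 to 105 ± 36.5, a change of -1.04 ± 0.25 (adjusted p = 0.0161). It was -0.72 without day 4 replicate 1, where Csrp1 read 64.4 against 117 and 134 on the other day 4 arrays (adjusted p = 0.00371), and its call was lost without day 3 replicate 1 (adjusted p = 0.0747) and when limma's variance prior took no trend with signal, written below as eBayes without trend (0.0587). Csrp1 was measured on a suffixed probe set too, and without such probe sets 0 genes of this list were called lower. Gclc, which starts glutathione synthesis, was at 607 ± 42.7 and 493 ± 54.1, and the growth factor gene Pgf at 61.7 ± 9.67 and 87.5 ± 14.9 (adjusted p = 0.073 and 0.0815). Without day 4 replicate 1 both passed (adjusted p = 0.00686 and 0.0326), which made 3 lower and 1 higher, and without day 3 replicate 1 only 1 was lower.

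Of 15 genes of glutathione and oxidative stress defence tested, 6 fell and 0 rose, against 10.7% and 11.5% of all genes tested. Their median change was -0.30. Gpx1, a peroxidase that uses glutathione, fell from 1000 ± 99.7 to 486 ± 48.6, a change of -1.04 ± 0.11 (adjusted p = 0.000251, and at most 0.00312 without any 1 array). Nqo1, a quinone reductase, fell from 41.4 ± 8.84 to 17.5 ± 3.9 (adjusted p = 0.014). Gsr, which regenerates glutathione, fell from 138 ± 25.7 to 86.7 ± 11.2, and Srxn1, which repairs peroxiredoxins, from 72.8 ± 4.75 to 41.8 ± 11.7 (adjusted p = 0.0204 and 0.0209). The other 2, named after their values were seen, were the thioredoxin reductase Txnrd1 (1520 ± 97.7 and 983 ± 282) and the glutathione synthesis subunit Gclm (134 ± 23.2 and 92.5 ± 3.59), with adjusted p = 0.0281 and 0.0375. Txnrd1 read 670 on day 4 replicate 1 and 1060 and 1220 on the other day 4 arrays, and its change of -0.68 ± 0.19 was -0.42 without that replicate (adjusted p = 0.00337). The change of Srxn1 was -0.83 ± 0.21, and -1.05 without that replicate.

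These counts depended on single arrays. Without day 4 replicate 1, 7 were lower. Without day 3 replicates 1, 2 and 3, they were 3, 2 and 1, and with the mean over probe sets 2. Calls changed in number over all genes tested as well. There, 1318 were lower in the main fit, and 902, 845 and 716 without day 3 replicates 1, 2 and 3. Without day 4 replicate 1, 1780 were lower, and 931 with the mean over probe sets. With that mean the calls of Gsr, Srxn1, Txnrd1 and Gclm were lost (adjusted p = 0.0871, 0.371, 0.0729 and 0.0659), as was that of Srxn1 without suffixed probe sets (0.193). Those of Txnrd1 and Gclm were also lost with eBayes without trend (0.0955 and 0.0604), and that of Gclm with no filter on dim probe sets (0.064). Nqo1 lost its call without day 3 replicate 1 or 3, Gsr without day 3 replicate 2 or 3, Txnrd1 without any day 3 replicate, Gclm without all but day 3 replicate 1 and day 4 replicate 1, and Srxn1 without any array except day 4 replicate 1 (adjusted p up to 0.15). Nfe2l2, whose product NRF2 drives many of these genes, had 619 ± 17.4 at day 3 and 659 ± 72.9 at day 4, which did not pass (adjusted p = 0.578). Hmox1, the heme oxygenase that responds to the same stress, did not pass (56.9 ± 6.46 and 41.5 ± 4.07, adjusted p = 0.105).

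Of 19 genes tested that handle copper or iron, the other metals bound or shared by this system, 2 rose and 4 fell. Over all genes tested 11.5% rose and 10.7% fell. Of 10 copper genes tested, 2 rose and 1 fell, with a median change of -0.08. The copper exporter Atp7a rose from 364 ± 16.4 to 467 ± 14.3 and the copper importer Slc31a1 from 308 ± 17.7 to 403 ± 44.9 (adjusted p = 0.0199 and 0.0354). The call of Atp7a was lost on leaving out replicate 2 or 3 of either day (adjusted p up to 0.0841), and that of Slc31a1 on leaving out any array of day 3, or replicate 3 of day 4 (adjusted p up to 0.135). The 1 other Slc31a1 probe set above the filter level had the opposite sign, and with the mean over probe sets neither Atp7a nor Slc31a1 passed (adjusted p = 0.169 and 0.421). Slc31a1 also did not pass with median centring (0.0506) or eBayes without trend (0.0693). The copper chaperone Atox1 fell from 771 ± 70.2 to 524 ± 76.4 (adjusted p = 0.00972, and 0.0519 without day 3 replicate 3), but averaging its probe sets gave a positive change of 0.41 that did not pass (adjusted p = 0.256).

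Of 9 iron genes tested, 3 fell and 0 rose, against 10.7% and 11.5% of all genes tested, with a median change of 0.05. The transferrin receptor Tfrc, which takes up iron, fell from 2710 ± 76.3 to 1410 ± 260, a change of -0.96 ± 0.12 (adjusted p = 0.000765, and at most 0.00697 without any 1 array). Tfrc read 1110 on day 4 replicate 1 and 1560 on each of the other day 4 arrays, and its change was -0.797 without that replicate. Slc40a1, the iron exporter ferroportin, fell from 182 ± 22.9 to 120 ± 12.8, and Ncoa4, the receptor that sends ferritin to lysosomes, from 695 ± 9.13 to 545 ± 40.2 (adjusted p = 0.0136 and 0.0199). Both calls were lost on leaving out replicate 2 of either day or replicate 3 of day 3, and that of Ncoa4 also on leaving out replicate 1 of day 3 (adjusted p up to 0.0846), with the mean over probe sets (0.21) and with eBayes without trend (0.0512). Without day 4 replicate 1, 2 iron genes were higher and 4 lower. Fbxl5 and Ireb2 then passed as higher (adjusted p = 0.00193 and 0.0225) and Slc11a2 as lower (0.0371). Over all arrays these genes had adjusted p = 0.0701, 0.335 and 0.103. Without that array, copper and iron genes together were 4 higher and 5 lower of 19, against 2 and 4 over all arrays. Without day 3 replicate 3 they were 0 and 1, without day 3 replicate 2 0 and 2, and without day 4 replicate 2 1 and 2. Of the rises, 0 were left without day 4 replicate 3 and 1 without day 3 replicate 1.

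Genes of the glucocorticoid response, which can also induce metallothioneins, included 2 that fell and 0 that rose among 9 tested, with a median change of -0.14. Dusp1, a MAP kinase phosphatase, fell from 534 ± 61.7 to 305 ± 58.9, a change of -0.82 ± 0.15 (adjusted p = 0.00406, and at most 0.0236 without any 1 array). Its change was -0.97 without day 4 replicate 1. The kinase gene Sgk1 fell from 2020 ± 44.2 to 1640 ± 104, a change of -0.30 ± 0.07 (adjusted p = 0.0154), and lost its call without day 3 replicate 2 or 3 (adjusted p up to 0.0689), which left 1 gene lower in each case, and with eBayes without trend (0.0706). Nr3c1, the receptor, did not pass (90.4 ± 12.2 and 81.7 ± 4.38, adjusted p = 0.559).

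**Figure D4:**
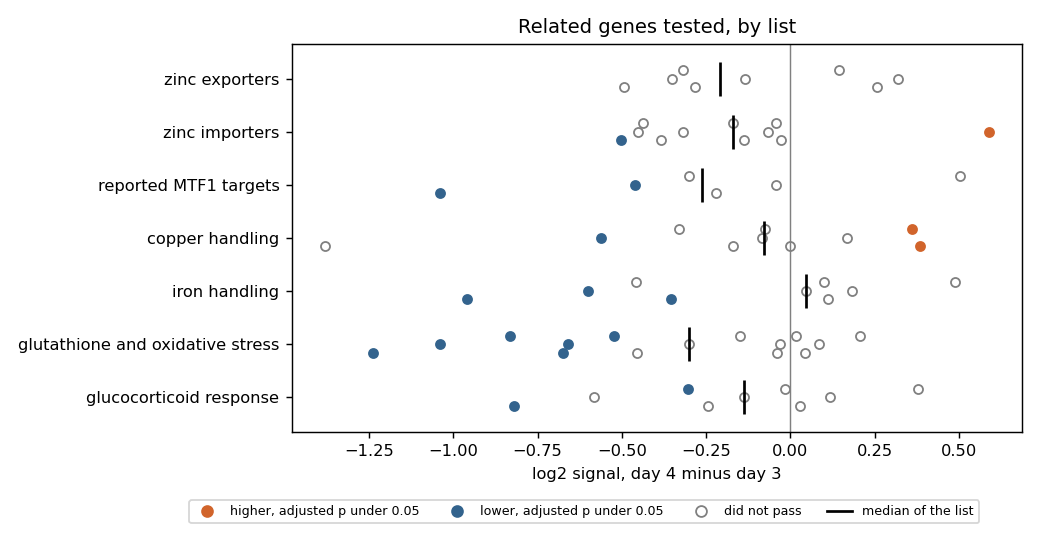
Log2 signal at day 4 minus day 3 for every gene tested in the 7 lists of related genes, members left out; points are genes, filled where adjusted p was under 0.05 (orange higher, blue lower), spread vertically for legibility, with a bar at the list's median. Filled points number 6 of 15 for glutathione and oxidative stress, 0 of 8 for zinc exporters and 2 of 11 for zinc importers.

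Patterns were compared by Pearson correlation of log2 signal over the 6 arrays among 10415 genes brighter than the median probe set. The members and clone names (symbols ending in Rik or starting with Gm and a number) were left out of these. Closest to Mt1 among them were Lmo1, Plpp3, Aard, Fam111a and Enoph1, all at r = 0.996 or 0.997. Lmo1, a LIM-only transcriptional cofactor, was at 327 ± 56.7 at day 3 and 55.5 ± 7.39 at day 4. Like Mt1 it was lowest on replicate 3 at day 3 and on replicate 2 at day 4, a likeness for which it was chosen. Plpp3, a lipid phosphatase, was at 220 ± 10.3 and 144 ± 7.2, and Enoph1, an enzyme of methionine salvage, at 1940 ± 66.9 and 1170 ± 46.8. Of the 10415 genes, 9.16% had r above 0.9 with Mt1.

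Closest to Slc30a1 were Steap2, Cacna2d1, Ostc, Csf1 and Gpatch4, with r from 0.991 to 0.995. Each had its highest signal on day 3 replicate 1 and its lowest on day 4 replicate 2, as did Slc30a1. Genes chosen by correlation over these arrays share their order largely by that choice, so it is no separate result. Csf1, a macrophage growth factor, was at 144 ± 34.1 and 63.2 ± 14, and Steap2, a metalloreductase, at 127 ± 11 and 102 ± 6.16. With Slc30a1, 4.45% of genes had r above 0.9. No p is given for these correlations.

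**Figure D5:**
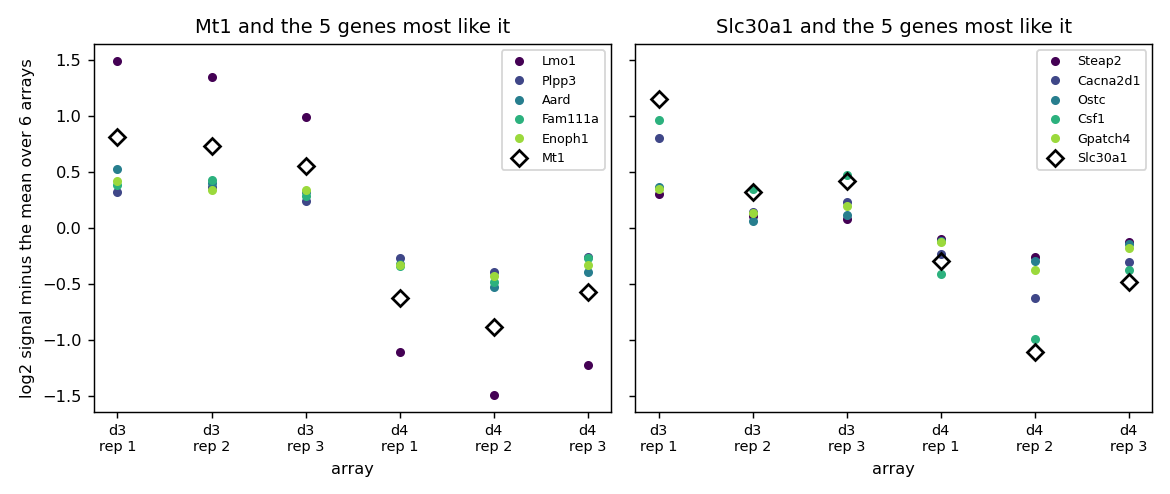
Log2 signal minus its mean over the 6 arrays for Mt1 (left) and Slc30a1 (right) as open diamonds. Coloured points are the 5 genes with the highest correlation to each, members and clone names left out. Labels d3 and d4 are day 3 and day 4, and replicates have no order. The 3 day 3 arrays lie above 0 and the 3 day 4 arrays under 0 for every gene shown.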

How the data were processed

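Signal was measured on 6 Affymetrix arrays of sorted cells after two-cycle amplification, per the labels' protocols. The deposited values are linear signal intensities made with MAS5, per the submitters' processing notes. A version, a scaling target and detection calls were not analysed here. The intensities of 45101 probe sets were used as deposited. MAS5 scatters widely for dim probe sets, and amplification favours 3′ ends, which can move low values most. Probe sets were named from the platform annotation (34958 with 1 symbol, 932 with several and left unnamed), and 64 control probe sets were used for quality only.

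The 4 genes and all lists were chosen with earlier results of these data known. Log2 signals were fitted with day as the only term in limma 3.58.1 under R 4.3.3 (eBayes with trend, 2-sided, Benjamini-Hochberg adjustment over 12285 genes), each gene by its brightest probe set above the 40th percentile. The script was checked on simulated arrays. The 4 members were not tested. Named were all zinc transporters past the threshold and up to 4 genes per other list by smallest p. The 5 genes most correlated with Mt1 and with Slc30a1 were named too, with members and clone names left out. Txnrd1, Gclm, Slc30a9, Slc30a7, Slc39a10, Slc39a14, Gclc, Pgf, Nfe2l2, Hmox1, Nr3c1, Fbxl5, Ireb2 and Slc11a2 were named after their values were seen. Trf, Ftl1 and Prdx1 were not analysed here. All 4 members matched a RefSeq promoter. Alternatives covered an offset of 4.14 before log2, quantile normalization, median centring, other filters and probe set rules, array weights, eBayes without trend, an adjusted threshold of 0.10, a replicate block and leaving out each array.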

Additional observations from a re-analysis of the deposited data

How the results depend on the processing

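The number of arrays limits precision, and signals near 13.5 or lower carry little. The log2 difference of Mt1 was -1.16 with the mean over its probe sets and -0.93 without suffixed probe sets, where only the dim probe set is left; those of Mt2, Mtf1 and Slc30a1 moved by less than 1 SD between replicates under every alternative run, and no difference of the 4 changed sign. Ranges without 1 array were -1.47 to -1.30 (Mt1), -1.61 to -1.35 (Mt2), -0.43 to -0.02 (Mtf1) and -1.43 to -0.999 (Slc30a1). Core counts before the annotated start alone were 1 for Mt1, whose main start may lie further downstream, and 1 for Slc30a1. Over all genes, 1411 were higher and 1318 lower; without 1 array the ranges were 866 to 1750 and 716 to 1780, array weights gave 2163 and 2149, and the mean over probe sets gave 865 higher. Zinc transporters higher were 1, or 2 with quantile normalization, the 60th percentile filter, array weights or the 0.10 threshold, and 1 to 2 without 1 array. Those lower were 1, or 3 with quantile normalization or array weights, 2 with median centring or the 60th percentile filter, 4 with the 0.10 threshold, 0 without suffixed probe sets, and 0 to 2 without 1 array. Copper and iron genes higher were 2 in the main fit. They were 1 with median centring or without trend, 0 with the mean over probe sets and 4 with array weights. Without 1 array they were 0 to 4. Those lower were 4, or 2 with the mean over probe sets, 6 with array weights and 1 to 5 without 1 array. Reported MTF1 targets higher were 0, or 1 with array weights or the 0.10 threshold and 0 to 1 without 1 array; those lower were 2, or 0 without suffixed probe sets, 1 without trend and 1 to 3 without 1 array. Glutathione and oxidative stress genes lower were 6, or 2 with the mean over probe sets and 8 with the 0.10 threshold. Without 1 array they were 1 to 7. Glucocorticoid response genes higher were 0, or 1 with array weights. Those lower were 2, or 3 with quantile normalization, array weights or the 0.10 threshold, and 1 to 2 without 1 array. Atox1 changed sign with the mean over probe sets (0.41) and without suffixed probe sets (0.31), Nr3c1 with the mean over probe sets (0.35), and Nfe2l2 without day 4 replicate 1 (-0.0026; range without 1 array -0.0026 to 0.144); the causes were not tested. The replicate block gave 1486 higher and 1398 lower. Correlations of deviations between same-numbered arrays were 0.0668, 0.011 and -0.00051, and between differently numbered arrays -0.0651 to 0.0704. With so few arrays these values cannot show whether a number was shared between the days, and the unblocked fit was kept as the main one. The block left the counts of the lists as they were, although Slc31a1 lost its call (adjusted p = 0.0516).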
